A study of Danio rerio with 18 samples.

Results

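The heat shock genes described here are 10 zebrafish genes taken by name from the 25107 genes of the deposited count table. They are the transcription factor gene hsf1, the HSP70 genes hspa8 and hsc70, their J-domain partner dnajb1b, the HSP90 genes hsp90aa1.1, hsp90aa1.2 and hsp90ab1, the small heat shock protein gene hspb1, and the mitochondrial chaperonin genes hspd1 and hspe1. All 10 passed the filter on low counts, as did 20462 genes in all. RNA was sequenced from adult ventricles in 18 poly(A) libraries of 2 to 3 pooled ventricles each, in 6 groups of 3. Every group carried the same alleles, the floxed tcf21vln18/vln18, the inducible Cre line Tg(ubbR:CreERT2*)vln2 and the reporter TgBAC(tcf21:DsRed2)pd37. The tcf21 gene encodes a transcription factor made in the epicardium, which covers the heart. Conditional knockout (cKO) fish had 3 baths of 24 h each in 4-hydroxytamoxifen at 5 µM, the drug that switches this Cre on, and the labels give no drug for the control fish, so deletion and drug cannot be told apart. Ventricles were uninjured and taken 12 days after the first bath, or were taken 3 days after sham surgery, in which the heart was exposed, or 3 days after cryoinjury, in which a probe chilled with liquid nitrogen froze the ventricle surface. Sham surgery and cryoinjury were likewise done 12 days after the first bath, so operated ventricles were taken 3 days later than uninjured ones.

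Chaperones hold or refold unfolded proteins. HSP70 proteins bind short exposed stretches with the help of J-domain proteins and pass many clients on to HSP90, while small heat shock proteins keep unfolded proteins from clumping and the HSP60 and HSP10 pair folds proteins inside mitochondria. Hsf1 binds heat shock elements in promoters and switches on many chaperone genes under stress, and in the heart chaperones maintain the contractile proteins and the mitochondria of cardiomyocytes.

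Library totals ranged from 107256750 to 191085931 estimated counts. The tcf21 level was 6.28 to 18.9 CPM (the count of a gene scaled to a common library size by TMM) in control libraries and 0.411 to 0.910 CPM in cKO libraries. The 6 measured markers of ventricular cardiomyocytes were present in every library. Their summed level was 49811 to 68271 CPM in control uninjured ventricles, 38621 to 44508 CPM in sham and 24730 to 32454 CPM in cryoinjured ones, and 45604 to 57494, 44437 to 48480 and 34317 to 41414 CPM in the same order in cKO ventricles. The 6 markers of epicardium and fibroblasts, tcf21 among them, summed to 245 to 309.7 CPM in control uninjured ventricles. They summed to 1161 to 1711 CPM in control sham and 1322 to 2365 CPM in control cryoinjured ventricles. In cKO ventricles the sums were 376 to 530 CPM uninjured, 900 to 1267 CPM after sham and 1589 to 1967 CPM after cryoinjury. In bulk tissue, fewer cells of a type and less RNA per cell cannot be told apart. The alignment names in the file headers end in L2 or L4, which is read here as lane 2 or lane 4, although the labels name no lane. The 3 control uninjured libraries and control sham libraries 1 and 2 were marked as lane 2. The other 13 libraries were marked as lane 4, among them all 9 cKO libraries and all 6 cryoinjured libraries. Lane and the difference between cryoinjury and uninjured thus cannot be told apart in controls, nor can genotype and lane in uninjured ventricles. Control sham library 3 shared lane 4 with the control cryoinjured libraries. Among the sham libraries, only control library 3 shared lane 4 with the cKO ones.

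Few of the heat shock genes were called as changed, and a gene that was not called may still have changed. An edgeR quasi-likelihood adjusted p under 0.05 over all genes was the rule for a call. In control ventricles 1 of the 10 genes was called between cryoinjury and uninjured, a fall of hsf1, where 23.7% of all genes tested were called. In cKO ventricles 1 of 10 was called in the same comparison, a rise of hspa8, where 10.6% of all genes were called. Averaged over the 3 conditions, 1 of 10 was called between cKO and control, a higher level of hsc70, where 0.518% of all genes were called. The first of these shares lies below the background and the second is close to it, each from 10 genes only. The last rests on a single gene.

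The other comparisons called 0 of the 10 genes. For control sham against uninjured 7.63% of all genes were called, for control cryoinjury against sham 1.37%, for cKO sham against uninjured 1.05% and for cKO cryoinjury against sham 1.46%. Between cKO and control, 0.132% were called in uninjured, 0.0147% in sham and 0.00489% in cryoinjured ventricles. For the difference between cKO and control in their response to sham, and likewise to cryoinjury, 0.0244% of all genes were called. At an unadjusted edgeR p under 0.05, these comparisons held 1 to 4 of the 10 genes each, with 4 in uninjured cKO against control, where 13.7% of all genes had such a p, and over all of these comparisons 7.59% to 22.2% had. The DESeq2 Wald test called 2 of the 10 in control sham against uninjured, hsf1 and hsp90ab1, where it called 13.7% of all genes with an adjusted p. It called 2 in control cryoinjury against sham, hsf1 and hsc70, where it called 8.63%, and 0 in the others of this group, where it called 0.546% to 7.10%.

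By level per length (TPM, a share of transcripts corrected for length, from the library files), the 10 genes fell into a high, a middle and a low tier. The mean over all 18 libraries was 1143 TPM for hsp90ab1, 831 TPM for hspa8 and 799.5 TPM for hspb1. A middle tier held hspe1 at 131 TPM, hsc70 at 127 TPM, hsp90aa1.1 at 114 TPM and hspd1 at 56.5 TPM. The lowest were hsp90aa1.2 at 21.5 TPM, hsf1 at 13.2 TPM and dnajb1b at 8.52 TPM. The high tier and the middle tier did not overlap in any group, but neighbours inside a tier mostly did. The middle and low tiers were not separate in every group, since hspd1 and hsp90aa1.1 each overlapped hsp90aa1.2 in control uninjured and control sham ventricles. In control uninjured ventricles, for example, hsp90ab1 (1020.3 to 1685 TPM), hspb1 (536 to 1249 TPM) and hspa8 (509.5 to 1064 TPM) overlapped, and so did hspe1, hsc70, hsp90aa1.1 and hspd1 each with the next. Hsf1 and dnajb1b did not overlap in control uninjured ventricles, where hsf1 was 13.4 to 16.7 TPM and dnajb1b 4.75 to 7.38 TPM, but did in control cryoinjured ventricles, at 9.61 to 13.7 and 8.73 to 20.1 TPM. Together the 10 genes held 0.246% to 0.416% of all TPM in a library.

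**Figure D1:**
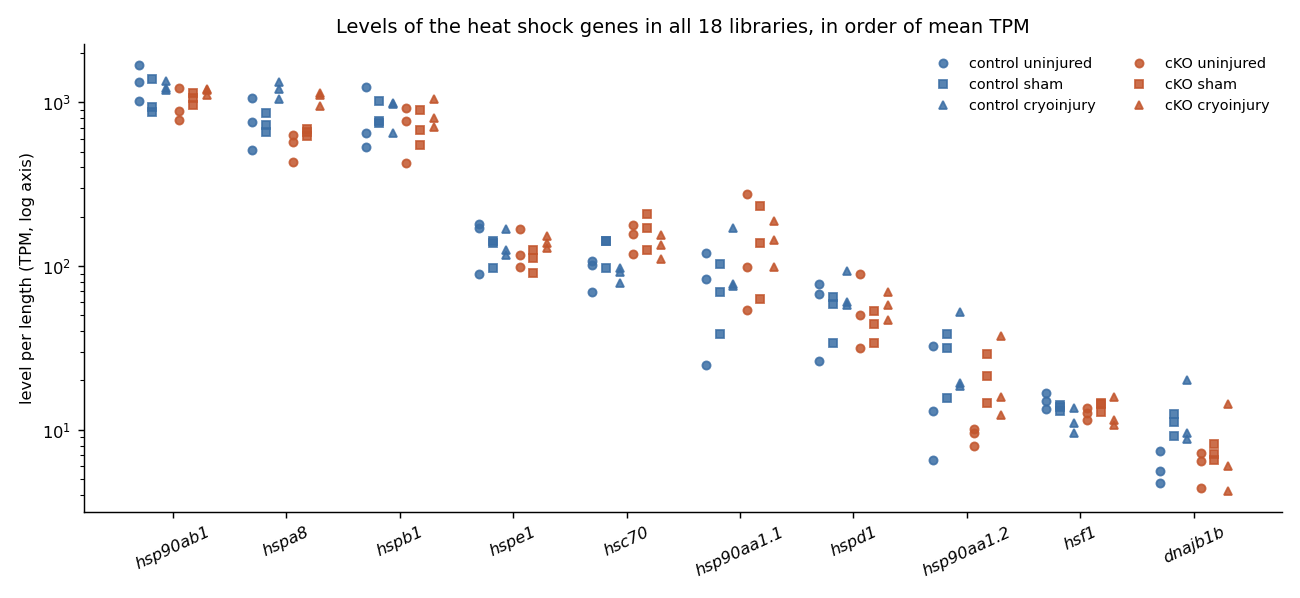
Level of each heat shock gene in TPM on a log axis, ordered by the mean over 18 libraries, with one symbol per library, colour for genotype and shape for condition. The upper 3 genes average 799.5 to 1143 TPM and the lowest, dnajb1b, averages 8.52 TPM.

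Hsf1 (ENSDARG00000008818, GRCz11 chr19:3056450-3082268, plus strand) encodes heat shock factor 1, the transcription factor that drives the heat shock response. In control uninjured ventricles it was measured at 51.3, 44.3 and 37.5 CPM, after sham at 32.6, 32.2 and 33.2 CPM, and after cryoinjury at 24.9, 21.3 and 24.5 CPM. In cKO ventricles it was 37.9, 37.3 and 31.9 CPM uninjured, 34.4, 38.2 and 41.1 CPM after sham, and 35.3, 27.2 and 27.9 CPM after cryoinjury. In controls every cryoinjured library lay below every sham library, and every sham library below every uninjured one. In cKO the uninjured and cryoinjured libraries overlapped. From uninjured to cryoinjury, control hsf1 fell by 0.91 on the log2 scale (SE 0.14, edgeR adjusted p = 0.000256), a level 1.88-fold lower, and all 14 exons were lower. Leaving out any of the 6 libraries kept the call, with adjusted p up to 0.0025. All 14 exons were also lower from uninjured to cryoinjury in cKO, a difference that was not called. Exons of a gene share its libraries, so their directions are not separate evidence for hsf1 or the genes below.

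The other differences of hsf1 did not pass the test. Control sham against uninjured was -0.44 (edgeR adjusted p = 0.0695) and control cryoinjury against sham was -0.47 (adjusted p = 0.0970). In cKO, cryoinjury against uninjured was -0.24 (SE 0.14, edgeR adjusted p = 0.299), and the difference between the cKO and control responses to cryoinjury was 0.67 (SE 0.20, adjusted p = 0.232), so the responses were not shown to differ. Groups without any overlap between control sham and uninjured were found for hsf1, hsp90ab1 and dnajb1b, 3 of 10 genes against 23.4% of all genes, and between control cryoinjury and uninjured for hsf1 and hsp90ab1, 2 of 10 against 35% of all genes. Both counts are near the background.

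The size of the hsf1 fall changed with scaling, and its call was lost in the fit with lane as a covariate. With library totals in place of TMM the log2 difference was -0.41 (edgeR adjusted p = 0.0423), while the median of all genes moved from 0.02 to 0.51. On the TPM scale the hsf1 groups overlapped, at 15.05, 16.7 and 13.4 TPM in uninjured and 13.7, 9.61 and 11.01 TPM in cryoinjured controls. With lane as a covariate, which rests on the contrast between the control sham libraries, the difference was -0.95 and the edgeR adjusted p was 0.0575. Of the 6 cardiomyocyte markers, 0 were called higher and 4 lower in control cryoinjury against uninjured, where 10.6% of all genes were called lower. In cKO 0 were called higher and 1 lower, where 3.69% of all genes were called lower. In control sham against uninjured 0 of 6 were called, where 7.63% of all genes were. In control cryoinjury against sham 0 of 6 were called, where 1.37% of all genes were. The part of cardiomyocyte content in the hsf1 difference was not tested.

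Nearly all hsf1 TPM came from 2 transcripts that differ by a 78-base exon at chr19:3077825-3077902, exon 10 of 14. The transcript with this exon (ENSDART00000141324) held 59.5% ± 3.4 of hsf1 TPM in control uninjured, 56.3% ± 5.0 in control sham and 53.2% ± 3.1 in control cryoinjured ventricles (SD, n = 3). In cKO ventricles its share was 61.7% uninjured, 54.0% after sham and 56.5% after cryoinjury. Read coverage of the exon relative to its neighbours was 0.704 to 0.754 in control uninjured, 0.526 to 0.737 in control sham and 0.627 to 0.840 in control cryoinjured libraries. It was 0.602 to 0.637, 0.533 to 0.575 and 0.584 to 0.835 in cKO libraries in the same order. The uninjured cKO libraries all lay below the uninjured control libraries, which ran on the other lane, and the remaining pairs of genotypes overlapped. No test was run on these shares, which the quantification estimates per library.

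**Figure D2:**
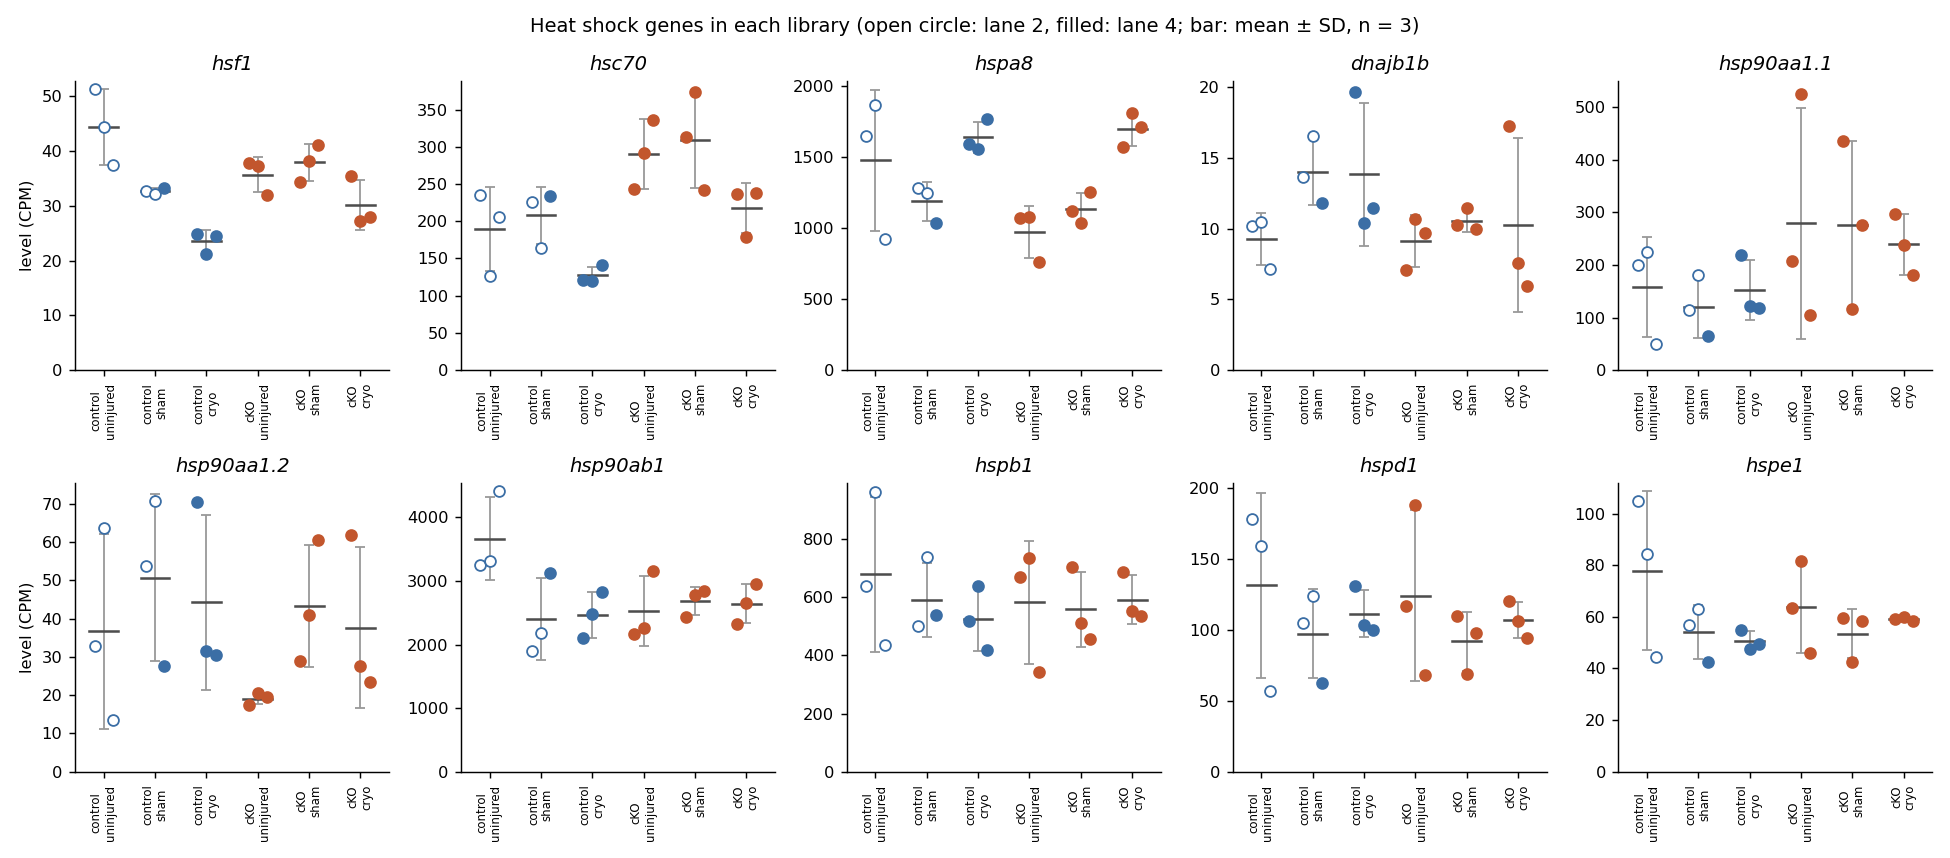
Level of each heat shock gene in CPM in all 18 libraries, by group, each panel starting at 0, with open circles for lane 2, filled circles for lane 4, and bars for mean ± SD (n = 3). Hsf1 steps down from 37.5 to 51.3 CPM in uninjured controls to 21.3 to 24.9 CPM after cryoinjury, and hspa8 lies higher in cKO after cryoinjury than in cKO uninjured.

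Hspa8 (ENSDARG00000068992, chr10:29849497-29858018, plus strand) encodes the constitutive HSP70 chaperone that folds new proteins and strips clathrin from vesicles. It was measured at 1071, 1078 and 759.6 CPM in uninjured cKO ventricles, at 1120.5, 1031 and 1253 CPM after sham, and at 1570.3, 1807 and 1706 CPM after cryoinjury. In control ventricles it was 1646, 1865 and 919 CPM uninjured, 1283, 1242 and 1031 CPM after sham, and 1590.0, 1557 and 1763 CPM after cryoinjury. After cryoinjury every cKO library lay above every uninjured and sham cKO library, at levels that overlapped those of cryoinjured controls. Control uninjured libraries spread 2.03-fold, with library 3 lowest, and overlapped both other control groups.

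In cKO, hspa8 rose by 0.81 on the log2 scale from uninjured to cryoinjury (SE 0.21, 1.75-fold, edgeR adjusted p = 0.0215), with all 8 exons higher and both groups on lane 4. This call was lost without cKO uninjured library 3 (edgeR adjusted p = 0.0859), without cKO cryoinjured library 2 (0.0849) or without cKO cryoinjured library 3 (0.0690), and the difference then was 0.66 to 0.89 over all 6 libraries left out in turn. In control ventricles the same difference was 0.15 (SE 0.21, edgeR adjusted p = 0.670), and it was -0.10 without control uninjured library 3. With library totals in place of TMM it was 0.64 in controls (edgeR adjusted p = 0.0232) and 1.06 in cKO. The difference between the cKO and control responses was 0.66 (SE 0.30, edgeR adjusted p = 0.423), so the responses were not shown to differ. Groups did not overlap between cKO cryoinjury and uninjured for hspa8, hsc70 and hsp90aa1.2, 3 of 10 genes against 34.2% of all genes, which is no more than the background.

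Hsc70 (ENSDARG00000012381, chr15:37834594-37850969, minus strand) encodes a second HSP70 of the constitutive, cognate type. In uninjured ventricles it was measured at 235, 126 and 206 CPM in controls and 243, 292 and 337 CPM in cKO. After sham it was 226, 165 and 234 CPM in controls and 313, 374 and 243 CPM in cKO. After cryoinjury it was 121, 120.3 and 141 CPM in controls and 237, 179 and 238 CPM in cKO. In each condition every cKO library lay above every control library, narrowly in the uninjured and sham groups. Hsc70 was the only one of the 10 genes with this separation in all 3 conditions, 1 of 10 where 0.445% of all genes showed it in either direction.

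Averaged over conditions, hsc70 was higher in cKO by 0.66 on the log2 scale (SE 0.13, 1.58-fold, edgeR adjusted p = 0.0373). By condition the differences were 0.62 in uninjured, 0.57 in sham and 0.77 in cryoinjured ventricles, with edgeR adjusted p of 0.245, 0.506 and 0.403, and all 9 exons were higher in each. Leaving out 1 library at a time kept the call in 6 of 18 fits, with the difference between 0.58 and 0.72 and adjusted p up to 0.0924. With lane as a covariate the difference was 0.51 and the edgeR adjusted p 0.747. Among libraries of lane 4 only, the cryoinjured groups are those listed, and control sham library 3, at 234 CPM, lay below the 3 cKO sham libraries. Control hsc70 after cryoinjury, at -0.57 against uninjured (SE 0.22, edgeR adjusted p = 0.0762) and -0.71 against sham (adjusted p = 0.114), did not pass the test.

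Hsc70 and hspa8 encode closely related proteins, and how the quantification shared reads that match both is not given in the sources used here. Per length hspa8 exceeded hsc70 in every library, by a mean of 9.18-fold in control uninjured, 6.05-fold in control sham and 13.3-fold in control cryoinjured ventricles, and by 3.75-, 4.12- and 8.18-fold in cKO. The ratio was 12.96 to 13.7 in the 3 control cryoinjured libraries and 7.09 to 10.3 in the 3 cKO cryoinjured libraries, without overlap. For this contrast the exact permutation test gave two-sided p = 0.1, the smallest that 3 against 3 libraries allow, and 0.327 after adjustment over 36 ratio tests. A second gene named HSPA8 in the name table, on chromosome 15, held 17 to 230 counts per library. The genes si:dkey-238d18.3 and jhy, which overlap hsc70 and hspa8 on the same strand, were at most 0.329 and 0.423 CPM.

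Dnajb1b (ENSDARG00000041394, chr1:55745878-55750208, minus strand) encodes a J-domain protein that stimulates HSP70. It had the lowest mean TPM of the 10 over all 18 libraries, although in control cryoinjured ventricles its mean of 12.8 TPM lay above the 11.4 TPM of hsf1, with overlap. In controls it was measured at 10.2, 10.5 and 7.14 CPM uninjured, 13.7, 16.6 and 11.8 CPM after sham, and 19.7, 10.4 and 11.4 CPM after cryoinjury. In cKO it was 7.05, 10.7 and 9.66 CPM uninjured, 10.3, 11.5 and 9.96 CPM after sham, and 17.3, 7.56 and 5.93 CPM after cryoinjury. Control sham libraries lay above control uninjured ones, by 0.60 on the log2 scale (SE 0.33, edgeR adjusted p = 0.308), and library 1 was the highest of both cryoinjured groups. The gene adgre10 overlaps dnajb1b on the opposite strand at 2.89 to 9.22 CPM, and whether the counting used strand is not given in the sources used here, so reads of the overlap cannot be assigned.

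Among the HSP90 genes, hsp90ab1 (ENSDARG00000029150, chr20:51197758-51213829, plus strand) encodes the constitutive cytosolic form. It was measured at 3254, 3319 and 4410.3 CPM in control uninjured, 1904, 2179 and 3132 CPM in control sham, and 2096, 2482 and 2819.8 CPM in control cryoinjured ventricles. In cKO it was 2169, 2260.3 and 3161 CPM uninjured, 2426, 2777 and 2845 CPM after sham, and 2329.8, 2648 and 2944 CPM after cryoinjury. Control uninjured libraries, all on lane 2, lay above all other groups. Against them, control cryoinjury was -0.57 (SE 0.20, edgeR adjusted p = 0.0510), control sham -0.61 (SE 0.20, adjusted p = 0.0801) and cKO uninjured -0.53 (SE 0.20, adjusted p = 0.261), each short of the threshold. These calls depended on the fit. For control cryoinjury the edgeR adjusted p was 0.0026 with the replicate block and 0.0451 with DESeq2 size factors, and the DESeq2 Wald test gave 0.0257, while the log2 difference was -1.19 with lane as a covariate (adjusted p = 0.0526) and -0.10 with library totals in place of TMM. For control sham the edgeR adjusted p was 0.0052 with the replicate block and 0.0303 with lane, and the DESeq2 Wald test gave 0.0250. Without control uninjured library 1 the cryoinjury difference was -0.65 (edgeR adjusted p = 0.04999), and without control sham library 3 the sham difference was -0.84 (adjusted p = 0.0311). In all 6 groups the library numbered 3 held the highest hsp90ab1 level and the library numbered 1 the lowest, which was true of none of the other 9 genes.

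Hsp90aa1.1 (ENSDARG00000010478, chr20:53982317-54012043, minus strand), which in zebrafish is needed to fold skeletal muscle myosin, had the widest range of the 10. Control libraries held 201, 225 and 48.7 CPM uninjured, 113, 180.2 and 65.0 CPM after sham, and 218, 121 and 118 CPM after cryoinjury. In cKO the values were 208, 526 and 105 CPM uninjured, 436, 116 and 277 CPM after sham, and 297, 239 and 181 CPM after cryoinjury. Its highest library was 10.8-fold above the lowest, replicates of uninjured cKO differed 5.00-fold, and control and cKO overlapped in each condition. Averaged over conditions the cKO level was 0.89 higher on the log2 scale (SE 0.36, edgeR adjusted p = 0.244), which did not pass the test.

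Hsp90aa1.2 (ENSDARG00000024746, chr20:53967350-53981626, minus strand), which encodes the other cytosolic HSP90 of the alpha type, lies 690 bases from hsp90aa1.1 on the same strand. Its level was 32.8, 63.8 and 13.4 CPM in control uninjured, 53.8, 70.8 and 27.7 CPM in control sham, and 70.6, 31.7 and 30.5 CPM in control cryoinjured ventricles. In cKO it was 17.4, 20.5 and 19.5 CPM uninjured, 28.9, 40.8 and 60.5 CPM after sham, and 61.9, 27.7 and 23.6 CPM after cryoinjury. Uninjured cKO libraries were tight and lay below both other cKO groups, by 1.18 on the log2 scale against sham (SE 0.53, edgeR adjusted p = 0.425) and 0.98 against cryoinjury (SE 0.52, adjusted p = 0.261), neither past the threshold.

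Although the HSP90 alpha genes are neighbours, their ratio varied. Per length, hsp90aa1.1 exceeded hsp90aa1.2 by a mean of 4.65-fold in control uninjured, 2.46-fold in control sham and 3.78-fold in control cryoinjured ventricles. In cKO the mean was 15.04-fold uninjured, with libraries from 5.65- to 27.0-fold, 7.88-fold after sham and 7.40-fold after cryoinjury. The ratio was higher in every cKO library than in every control library after sham and after cryoinjury, each with exact permutation p = 0.1, the smallest possible, and 0.327 after adjustment over the 36 ratio tests. The pair is alike in sequence, and reads that match both cannot be assigned with certainty.

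Hspb1 (ENSDARG00000041065, chr5:3568016-3584815, minus strand) encodes the small heat shock protein HSP27, which binds unfolded proteins and the actin cytoskeleton. Control levels were 639, 963 and 436 CPM uninjured, 500.2, 737 and 537 CPM after sham, and 520.0, 637 and 418 CPM after cryoinjury. In cKO, hspb1 was 669, 737 and 343 CPM uninjured, 705, 513 and 457 CPM after sham, and 688, 552 and 535 CPM after cryoinjury. All 6 groups overlapped. The differences ran from -0.37 to 0.17 on the log2 scale over the 9 comparisons of paired groups, with standard errors of 0.30. Changes well above that standard error could also be missed, since hsp90ab1 at -0.61 (SE 0.20) was not called in control sham against uninjured.

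**Figure D3:**
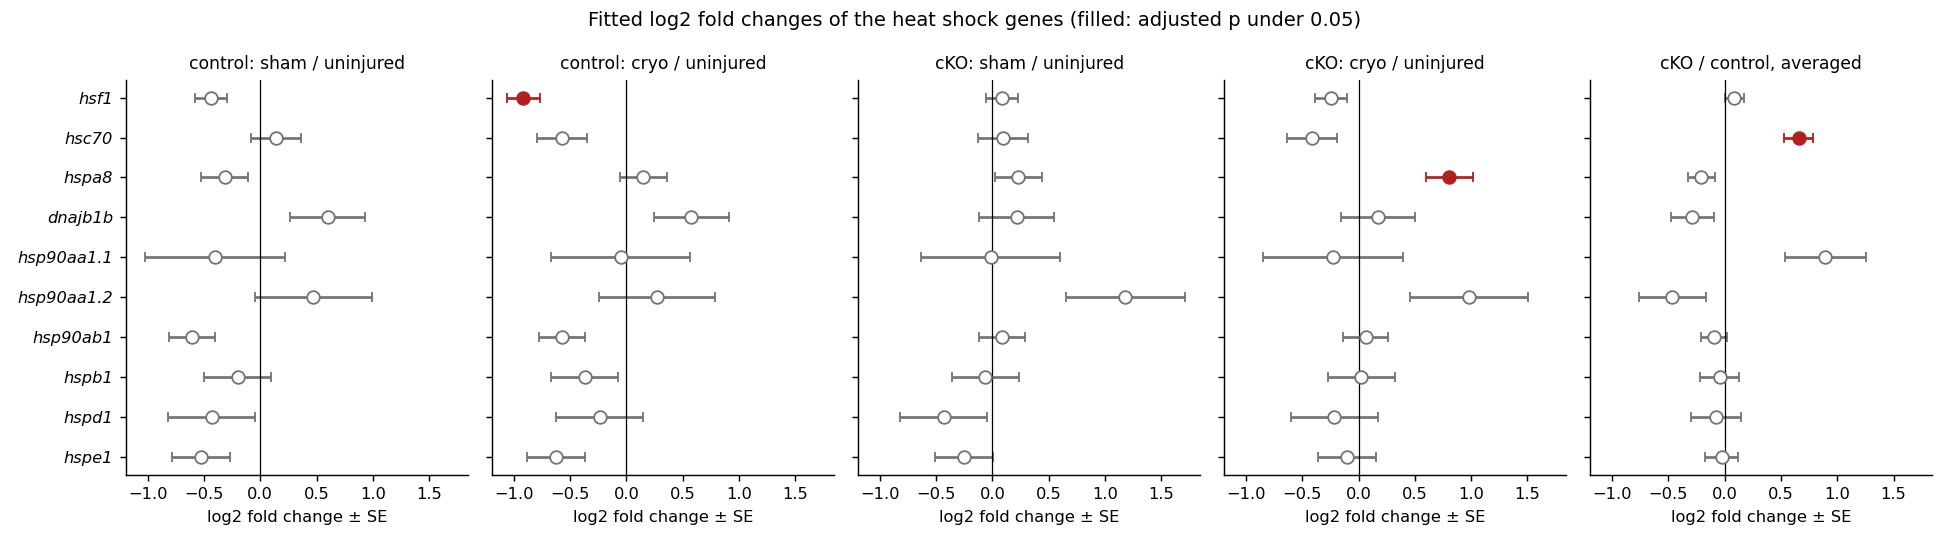
Fitted log2 difference ± SE of each heat shock gene in 5 comparisons, with filled symbols for an edgeR adjusted p under 0.05. The filled points are hsf1 at -0.91 in control cryoinjury against uninjured, hspa8 at 0.81 in cKO cryoinjury against uninjured, and hsc70 at 0.66 in cKO against control.

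Hspd1 (ENSDARG00000056160, chr9:32286605-32300783, minus strand) encodes mitochondrial HSP60, which zebrafish need for fin regeneration, and hspe1 (ENSDARG00000056167, chr9:32301017-32305007, plus strand) encodes HSP10, the lid of the HSP60 chamber. The genes lie head to head, 233 bases apart. Hspd1 was measured at 178, 159 and 56.8 CPM in control uninjured, 105, 124 and 62.7 CPM in control sham, and 131, 104 and 99.9 CPM in control cryoinjured ventricles. In cKO it was 117, 188 and 68.2 CPM uninjured, 109.4, 68.9 and 97.6 CPM after sham, and 120.1, 106 and 94.3 CPM after cryoinjury. Uninjured libraries numbered 3 were the lowest of their groups in both genotypes, and all groups overlapped. No hspd1 difference passed the test.

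Hspe1 was 105, 84.3 and 44.3 CPM in control uninjured, 56.7, 63.0 and 42.4 CPM in control sham, and 54.7, 47.5 and 49.6 CPM in control cryoinjured ventricles. The cKO libraries held 63.4, 81.5 and 46.1 CPM uninjured, 59.4, 42.5 and 58.5 CPM after sham, and 59.2, 59.98 and 58.4 CPM after cryoinjury. Here too the uninjured libraries numbered 3 were the lowest of their groups in both genotypes. Control cryoinjury against uninjured was -0.62 (SE 0.26, edgeR adjusted p = 0.0942), and it was -0.90 and called (adjusted p = 0.00187) with both uninjured libraries numbered 3 left out, a choice made after their values were seen.

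Per length, hspe1 exceeded hspd1 in every library, and the pair moved together. The mean ratio of hspe1 to hspd1 was 2.75 in control uninjured, 2.48 in control sham and 1.97 in control cryoinjured ventricles, and 2.45, 2.52 and 2.44 in cKO. The 3 control cryoinjured libraries, at 1.81 to 2.17, lay below both other control groups and below the cKO cryoinjured libraries, at 2.21 to 2.74. Each of these contrasts reached the smallest exact permutation p of 0.1, which is 0.327 after adjustment over the 36 ratio tests.

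**Figure D4:**
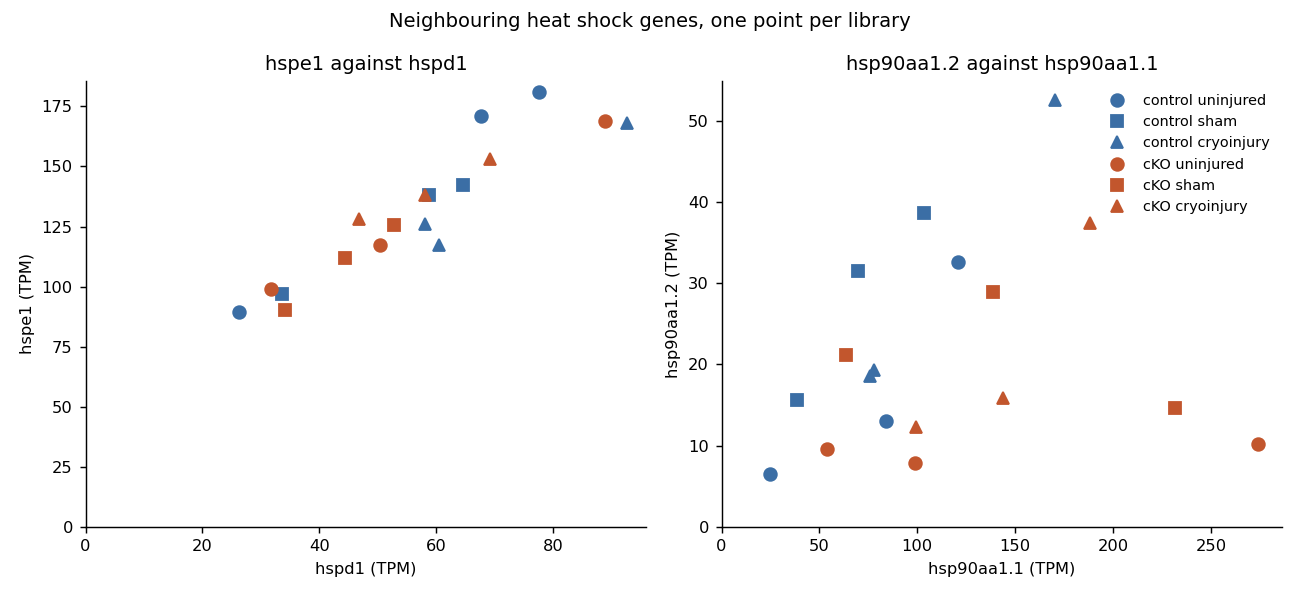
Each point is 1 library, with the level per length in TPM of hspd1 against hspe1 (left) and of hsp90aa1.1 against hsp90aa1.2 (right), colour for genotype and shape for condition. The chaperonin pair lies along a line, with group mean ratios of 1.97 to 2.75, while the HSP90 alpha pair scatters, with group mean ratios of 2.46 to 15.04.

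Across the 10 genes, control cryoinjury against uninjured gave 3 positive and 7 negative log2 differences with a median of -0.30, where the median of all genes was 0.02. With library totals in place of TMM the median was 0.19 against 0.51 for all genes, so relative to all genes it lay at -0.33 and -0.32. With that scaling, 2 of the 10 genes were called higher, hspa8 and dnajb1b, and hsf1 lower, 3 of 10 where 30.4% of all genes were called, which is the background. In cKO the median was -0.04 over the 10 genes and 0.03 over all genes. The control and cKO contrasts with injury share no library, whereas contrasts with sham and with cryoinjury in a genotype share its uninjured libraries.

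The genes whose levels ran most like each heat shock gene over the 18 libraries were sought among 9865 other genes, the 10 heat shock genes left out, with a symbol and a mean of at least 5 CPM, by the root mean square difference of standardised log2 CPM, where 0 means identical profiles. For hsf1 they were tmod1 (0.38), PPTC7 (0.39) and atp1a3b (0.39). For hspa8 they were rhoca (0.38), cmpk (0.40) and CORO1C (0.45), and for hsc70 perm1b (0.41), hrc (0.48) and GPSM1 (0.48). Hsp90ab1 had the closest neighbours of all, rsl24d1 (0.31), eef1a1l1 (0.32) and EIF2S3B (0.32). For hspe1 they were hspa9 (0.33), FAM210A (0.39) and cycsb (0.40), and for hspd1 grpel1 (0.39), pdss1 (0.44) and stoml2 (0.45).

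The remaining genes had looser matches. Hspb1 ran closest to stoml2 (0.56), pdss1 (0.62) and adgrf3b (0.62), and stoml2 and pdss1 are thus near both hspb1 and hspd1. For hsp90aa1.1 the nearest were dnaja (0.50), ADAM17 (0.55) and bicd2 (0.63), and for hsp90aa1.2 cfap97 (0.50), hsp70l (0.56) and nfe2l1b (0.60). Dnajb1b ran closest to phf23a (0.50), rbm15b (0.68) and COLGALT1 (0.71), and among the heat shock genes hsp90aa1.2 lay at 0.69 from it, nearer than COLGALT1. Hspd1 and hspe1 lay 0.46 apart. Each point of these profiles shares its library and depth with the others.

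Beyond the 10 genes, 106 other genes of the chaperone network were tested, in 8 lists by role. Some genes, such as trap1, grpel2, dnaja3a and hsp90b1, stand in more than 1 list, so the lists are not separate evidence. In control cryoinjury against uninjured 8 were called higher and 27 lower, 33.0% of the 106 beside 23.7% of all genes. In cKO 6 were called higher and 5 lower, 10.4% beside 10.6%. In control sham against uninjured 4 were higher and 11 lower, 14.2% beside 7.63%, and in cKO 2 higher and 0 lower, 1.89% beside 1.05%. In the comparisons of cryoinjury with sham and of cKO with control, including the responses, 0 of 106 were called.

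The HSP70 family list had 0 of 15 genes called in any comparison. Of all genes, 23.7% were called in control and 10.6% in cKO cryoinjury against uninjured. With library totals in place of TMM, 3 were called higher in control cryoinjury against uninjured, where 30.4% of all genes were called. The list holds hsp70l, a stress-inducible HSP70, which ranged from 12.4 to 45.5 CPM in control uninjured and from 19.2 to 77.5 CPM in control cryoinjured libraries. In control cryoinjury against uninjured the list's median was 0.33 beside 0.02 over all genes. The most abundant gene of this list was hspa5, at 100.0 TPM.

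In the list of endoplasmic reticulum chaperones, 6 of 21 genes were called higher and 0 lower in control cryoinjury against uninjured, where 13.1% of all genes were called higher. With library totals 14 were higher and 0 lower, where 30.4% of all genes were called with that scaling, most of them higher. The list also holds the transcription factor genes xbp1, atf4a, atf4b and ddit3. The list's median was 0.43 beside 0.02 over all genes, and the other 15 genes did not pass the test. With their log2 differences, the 6 called higher included serpinh1b (4.78) and serpinh1a (2.47), which encode the collagen chaperone HSP47, and creld2 (1.24). The rest of the 6 were the disulfide isomerase gene pdia4 (1.18), calr (1.13), which encodes calreticulin, and hsp90b1 (0.80), the HSP90 of this compartment. Serpinh1b was 1.46 to 2.50 CPM in control uninjured and 35.5 to 77.5 CPM in control cryoinjured libraries. In cKO 3 of 21 were called higher, serpinh1b (3.28), serpinh1a (1.73) and creld2 (1.42), where 6.92% of all genes were. The epicardium and fibroblast markers moved with them, 5 of 6 called higher in control and 4 of 6 in cKO. Among these 6 is tcf21, the gene deleted in cKO. The part of these markers in the result was not tested. In the list of endoplasmic reticulum chaperones the transcription factor gene atf4a was the most abundant, at 294 TPM.

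In control cryoinjury against uninjured, 0 of 14 mitochondrial proteostasis genes were called higher and 8 lower. Of all genes 10.6% were called lower there, and the median of the 14 was -0.68. With library totals 0 were higher and 2 lower with a median of -0.17. In that scaling 30.4% of all genes were called in either direction, most of them higher, so this share does not match a count of genes called lower. In the same comparison 4 of 6 cardiomyocyte markers were called lower, with a median of -0.92, and their part in the result was not tested. The 8 mitochondrial genes called lower included the protease genes lonp1 (-1.25), yme1l1a (-0.99) and afg3l2 (-0.59) and the unfoldase genes clpxa (-1.20) and clpxb (-1.13). The rest of the 8 were the mitochondrial HSP90 gene trap1 (-0.81), the J-domain gene dnaja3a (-0.78) and the exchange factor gene grpel2 (-0.41). Clpxa was 152.6 to 179 CPM in uninjured and 65.5 to 79.1 CPM in cryoinjured controls, without overlap. In cKO clpxa (-0.81), clpxb (-0.78) and afg3l2 (-0.55) were called lower, 3 of 14 where 3.69% of all genes were, beside 1 of 6 cardiomyocyte markers. The gene hspa9, which encodes the mitochondrial HSP70 and is the most abundant gene of this list at 80.2 TPM, was -0.83 in controls (edgeR adjusted p = 0.0582).

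Small heat shock proteins other than hspb1 had 4 of 8 called lower in control cryoinjury against uninjured, hspb6 (-2.11), hspb7 (-1.08), hspb3 (-1.06) and hspb2 (-0.64), with 0 higher, whereas with library totals 1 was higher and 1 lower. Of all genes 10.6% were called lower there with TMM, and 30.4% were called in either direction with library totals, most of them higher. Beside these genes 4 of 6 cardiomyocyte markers were called lower, with a median of -0.92 over the 6, a part that was not tested. Hspb7, of heart and muscle, was at 1417 TPM more abundant than hspb1. Its level was 1076 to 2159.6 CPM in uninjured and 688 to 864 CPM in cryoinjured controls. Hspb6 was 602 to 3529 CPM and 385 to 632 CPM in the same groups, which overlapped. In cKO 0 of 8 were lower and hspb9 was higher (3.65), at 0 to 0.969 CPM uninjured and 3.48 to 9.36 CPM after cryoinjury. Of all genes 3.69% were called lower and 6.92% higher in this cKO comparison.

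Of the cytosolic chaperonin TRiC, which folds actin and tubulin, 3 of 7 subunit genes were called lower in control cryoinjury against uninjured, where 10.6% of all genes were. They were cct8 (-0.72), cct5 (-0.69) and cct4 (-0.54). These 3 were also called lower in control sham against uninjured (-0.63, -0.59 and -0.61), where 578 of 20462 genes were. In cKO cryoinjury against uninjured 0 were called, where 10.6% of all genes were. With library totals 0 were called in control cryoinjury against uninjured, where 30.4% of all genes were. Cct5 was the most abundant, at 218 TPM. The list of the HSP90 family and its co-chaperones gave 5 of 20 lower, the co-chaperone ptges3a (-0.83), the mitochondrial HSP90 gene trap1 (-0.81), the myosin chaperone partner smyd1b (-0.67), cdc37 (-0.57), which brings kinases to HSP90, and the ubiquitin ligase stub1 (-0.53), and 1 higher, hsp90b1, in control cryoinjury against uninjured, with 0 in cKO, whereas with library totals 4 were higher and 0 lower in controls. These 6 calls among 20 genes are near the 23.7% of all genes called. The 0 calls in cKO cryoinjury against uninjured stand beside 10.6% of all genes called. The 4 with library totals stand beside 30.4% of all genes called with that scaling. In control sham against uninjured 2 of the 20 were lower, ptges3a (-1.09) and fkbp5 (-3.76), the most abundant of the list at 386 TPM.

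J-domain proteins and nucleotide exchange factors gave 10 of 30 lower in control cryoinjury against uninjured, where 10.6% of all genes were called lower. The 10 were led by dnajb4 (-1.89), dnajb2 (-1.20) and dnajb6b (-1.02), the most abundant at 120.0 TPM. The list gave 1 higher, dnajc3b (0.47). With library totals 3 were higher and 3 lower, where 30.4% of all genes were called in either direction, most of them higher. Beside these genes and those of TRiC, 4 of 6 cardiomyocyte markers were called lower in control cryoinjury against uninjured, and their part was not tested. In cKO cryoinjury against uninjured 2 of 30 were lower, dnajb6a (-0.48) and dnajc7 (-0.44), where 3.69% of all genes were. Of the 4 tested heat shock factors and regulators, hsf2, a factor related to hsf1, was called higher in control sham (1.17), cKO sham (1.41) and cKO cryoinjury (1.15) against uninjured. Of all 20462 genes, 984, 191 and 1415 were called higher in the same order. Hsf2 was 5.49 to 10.0 CPM in control uninjured, 13.9 to 19.1 CPM in control sham, and 7.30 to 11.6 CPM in control cryoinjured libraries. Hsbp1a, whose product binds heat shock factors, was higher after cryoinjury in control (1.95) and in cKO (1.55), where 13.1% and 6.92% of all genes were called higher. Hsbp1b was the most abundant of this list, at 56.6 TPM.

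**Figure D5:**
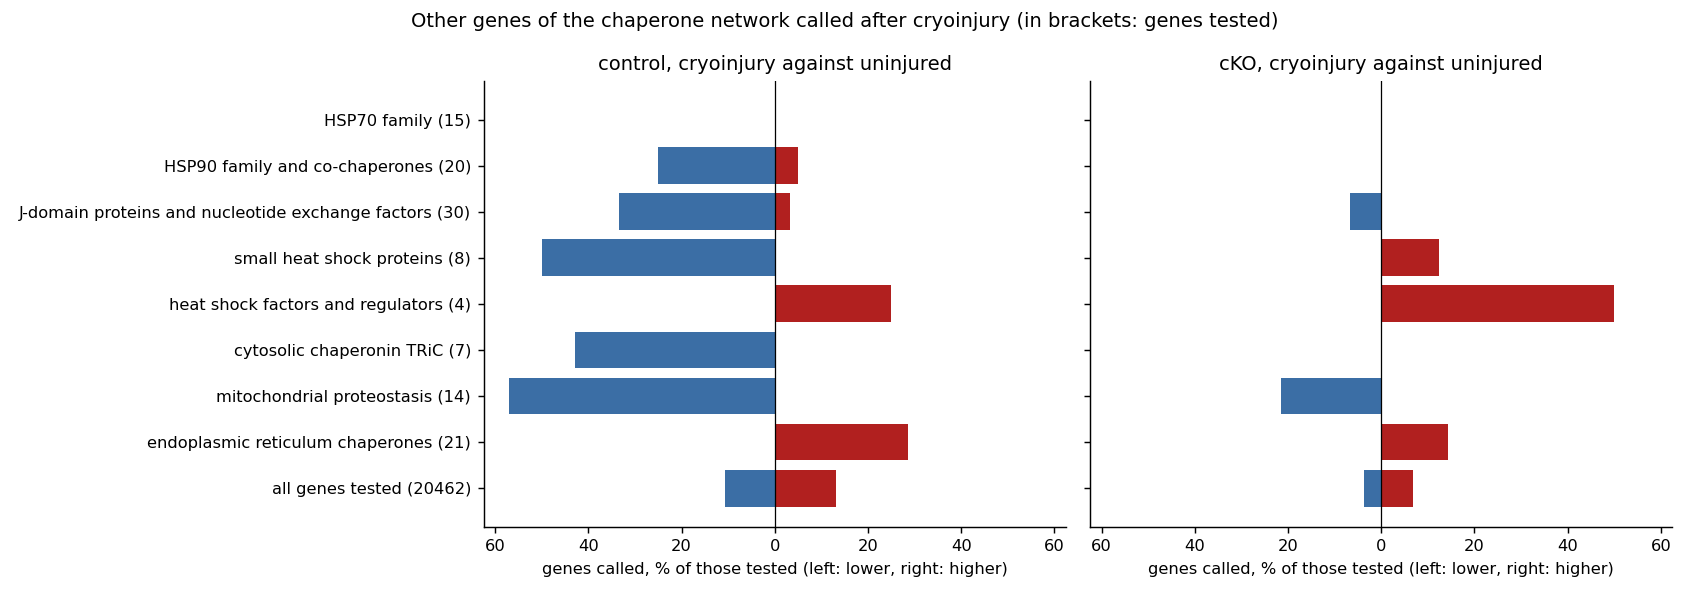
Share of each chaperone list called by edgeR after cryoinjury against uninjured, in control (left) and cKO (right), with genes called lower to the left of 0, genes called higher to the right, and the number of genes tested in brackets. In controls 8 of 14 mitochondrial genes were lower and 6 of 21 endoplasmic reticulum genes higher, and in both genotypes the bar of all genes tested is shown for reference.

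The direction of these counts changed with scaling, and their number differed in the fit with lane as a covariate. With library totals in place of TMM, 25 of the 106 genes were called higher and 6 lower in control cryoinjury against uninjured, and the median moved from -0.14 to 0.34. The same scaling called 30.4% of all genes. Of all genes it called 91.9% were higher, where with TMM 55.3% were. Relative to the median of all genes the 106 lay at -0.17 with either scaling. With lane as a covariate 3 of the 106 were higher and 7 lower, in a fit whose lane term rests on the control sham libraries. The share of all genes called in that fit is not set beside this count, which therefore shows nothing particular to chaperone genes. The differences between cryoinjury and uninjured in controls compare lane 4 with lane 2 libraries, whereas those in cKO do not.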

How the data were processed

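Per the submitters' processing notes, reads were checked with FastQC 0.11.9, trimmed with Trim Galore 0.6.10, aligned to GRCz11 with HISAT2 2.1.0 and quantified with StringTie 2.1.1. Per the file headers, StringTie ran against Ensembl release 109. The deposited estimated counts equal the authors' coverage times transcript length over 75, so 1 count stands for 75 aligned bases, and are whole numbers as deposited. TPM, FPKM and coverage values are those the authors deposited per library. CPM was computed here after TMM scaling, with a prior count of 2 on the log2 scale.

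Genes were tested with edgeR 4.0.16 (R 4.3.3; quasi-likelihood, all 6 groups in 1 fit, filterByExpr, Benjamini-Hochberg adjustment over 20462 genes), with DESeq2 1.42.0 as an alternative. Ratios of TPM were compared by two-sided exact permutation tests. All 10 genes were named. Genes of the lists were named where called or most abundant, and 3 nearest genes per heat shock gene. Members and lists were chosen with earlier results of these data known. Nothing in the labels says that libraries came from separate clutches or days, so p-values measure only the spread between these pooled samples. Same-numbered libraries deviated together with a correlation over 0.1 in 9 of 45 pairs, against 0 of 90 pairs with different numbers. The median correlation was 0.048 for the same number and -0.022 for different numbers. The labels do not tie a number to a shared animal or day, so the main fit did not take numbers as pairs. It leaves this likeness out, and the replicate block was run as an alternative.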

Additional observations from a re-analysis of the deposited data

How the results depend on the processing

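The number of the 10 genes called moved as follows. The share of all genes called in each of these fits is not set beside the counts, which therefore show nothing particular to the 10 genes. In control cryoinjury against uninjured, 1 gene became 2 with DESeq2 size factors and 2 with the replicate block (hsf1 and hsp90ab1 in both), 3 with the DESeq2 Wald test (also hsc70), 3 with library totals without TMM, 0 with lane as a covariate, 2 with both uninjured libraries numbered 3 left out, and 1 to 2 with 1 library left out. In control sham against uninjured, 0 became 1 with DESeq2 size factors, 1 with lane, 1 with the replicate block, 2 with DESeq2, 3 without both libraries numbered 3, and 0 to 3 with 1 library left out, the 3 being hsf1, hspe1 and hspa8 without control uninjured library 3. In control cryoinjury against sham, 0 became 2 with only the groups compared, 2 with DESeq2 and 1 without both libraries numbered 3. In cKO cryoinjury against sham, 0 became 1 with only the groups compared and 1 without both libraries numbered 3. In cKO against control, uninjured, 0 became 1 without both libraries numbered 3 and 0 to 1 with 1 library left out, and in cryoinjured ventricles 0 became 1 with only the groups compared. Averaged over conditions, 1 became 0 with lane and 0 to 1 with 1 library left out. In cKO cryoinjury against uninjured, 1 became 0 to 1 with 1 library left out. The hspa8 difference in control cryoinjury against uninjured ran from -0.10 to 0.35 with 1 library left out and changed sign, to -0.10, without control uninjured library 3 and without both uninjured libraries numbered 3. The alternatives for single genes were counted for 32 pairs of a gene and a comparison only, not for all pairs. Of these alternatives, 481 kept their direction and side of the threshold, 32 passed it newly, 17 no longer passed it and 2 changed sign. The cause was not tested. Of the 18 libraries, 14 correlated best with their own number, a hint from the data and not the design. The settings with library totals and without both uninjured libraries numbered 3 were chosen after seeing the data. With 3 libraries per group, exact tests cannot go below p = 0.1, and the lane term rests on the control sham libraries. The planned search of promoter motifs and comparison of proteins were not run, since no sequences were used here.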
